A study of Bos taurus with 6 samples.

Results

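Cyclins, cyclin-dependent kinases (CDKs), CDK inhibitors and CDC25 phosphatases were examined in the testes of immature calves and mature bulls. The members were all rows of the deposited gene table whose symbol begins with CCN and a letter, with CDK or CDKN and a digit, or with CDC25. This gave 69 of 47249 genes on 28 chromosomes. The rule used the symbol and no measured value. All 69 carry an Ensembl identifier, and all were matched by symbol to a protein-coding gene of RefSeq (assembly ARS-UCD2.0). The study compared untreated Wandong cattle of different age, with 3 calves of 3 months (calf 1 to calf 3) and 3 bulls of 3 years (bull 1 to bull 3), and 1 library of testis RNA depleted of ribosomal RNA per animal. The level of a gene is given in FPKM, fragments per kilobase of transcript relative to the fragments of the library, so that levels can be set side by side between genes of different length.

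A CDK is active only when bound to a cyclin, and the levels of the mitotic cyclins rise and fall through the cell cycle. CDC25 phosphatases remove inhibitory phosphates from CDKs, whereas the CDKN1 and CDKN2 proteins bind CDKs or their complexes with cyclins and block them. In the testis, spermatogonia divide by mitosis and spermatocytes by meiosis, Sertoli cells stop dividing around puberty, and spermatids differentiate without dividing. Several families have a member known for the germ line, such as cyclin A1. Other members (CDK9, CDK12 and their cyclins) act on RNA polymerase II rather than on cell division. CDK7 and its cyclin act on RNA polymerase II and also activate other CDKs.

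The library labelled calf 3 stood apart from calf 1 and calf 2. Summed over 9 neural markers, its FPKM was 13689.7 against 11.1 and 11.7 in calf 1 and calf 2 and 10.9 to 17.4 in bulls. The sum over 8 Sertoli cell markers was 444 in calf 3, of which CLDN11 made up 429, against 1796 and 1490 in the other calves, and that over 6 Leydig cell markers was 0.502 against 1389 and 1087. WT1, GATA4 and FSHR of the Sertoli list and CYP17A1 and CYP11A1 of the Leydig list were listed at 0 in calf 3. Its label is therefore in doubt, and the counts and the differences of the members named as called are given with and without it. In bulls, the sum over 11 spermatocyte markers was 623 to 690 against 3.74 to 33.2 in calves, that over 8 round spermatid markers 404 to 465 against 0.717 to 2.52, that over 9 markers of elongating and elongated spermatids 15208 to 17210 against 9.27 to 11.5, that over the Sertoli markers 188 to 224 and that over the Leydig markers 1451 to 2609. Of the 11, 8 and 8 tested genes of these lists, 2, 7 and 7 had no calf at 1 FPKM and passed the filter for testing through the bulls alone, so that a difference was set by the filter. The other 9, 1 and 1 were called higher in bulls. Of 9 tested markers of spermatogonia, 2 (22.2%) were called higher and 1 (11.1%) lower, against 35.7% and 9.61% of all genes tested. None of the 8 Sertoli markers was called with calf 3, and 7 were called lower and CLDN11 higher without it. Without calf 3, 13.6% of all genes tested were called lower and 37.9% higher. These marker levels moved with every difference between calves and bulls given here, and their part in the members' differences was not tested. In a bulk tissue, fewer cells of a type and less RNA per cell cannot be told apart.

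Of the 69 members, 63 passed the filter for testing, which asked for 1 FPKM or more in 3 or more of the 6 libraries. Differences are log2 fold changes of FPKM + 1, bull minus calf, with the standard error (SE), and p-values are from limma with Benjamini-Hochberg adjustment over all 18115 genes tested. A gene was called where its adjusted p was under 0.05 and its fold change was 1 or more on the log2 scale in either direction. In bulls, 23 members (36.5%) were called higher and 8 (12.7%) lower, where 35.7% and 9.61% of all genes tested were called in these directions, so the shares lay near the background. Without calf 3, 23 and 8 members were again called, of which 22 and 6 were the same genes, against a background of 37.9% and 13.6%. The median log2 fold change of the members was 0.30, and 0.43 over all genes tested. Under quantile normalization, where the median of all genes was -0.26, 15 members were called higher and 15 lower, and the 15 and 8 that had been called in these directions with all values as deposited were among them (background 21.1% and 25.1%). The groups did not overlap for 29 tested members higher in bulls (46.0%) and 18 lower (28.6%), against 46.1% and 21.3% of all genes tested. Of the tested members, CDKN2B alone passed the filter only through the bulls. The 6 members that did not pass are CCNI2, CCNO, CDC25B, CDK15, CDK18 and CDK5R2, and no fold change is given for them.

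**Figure D1:**
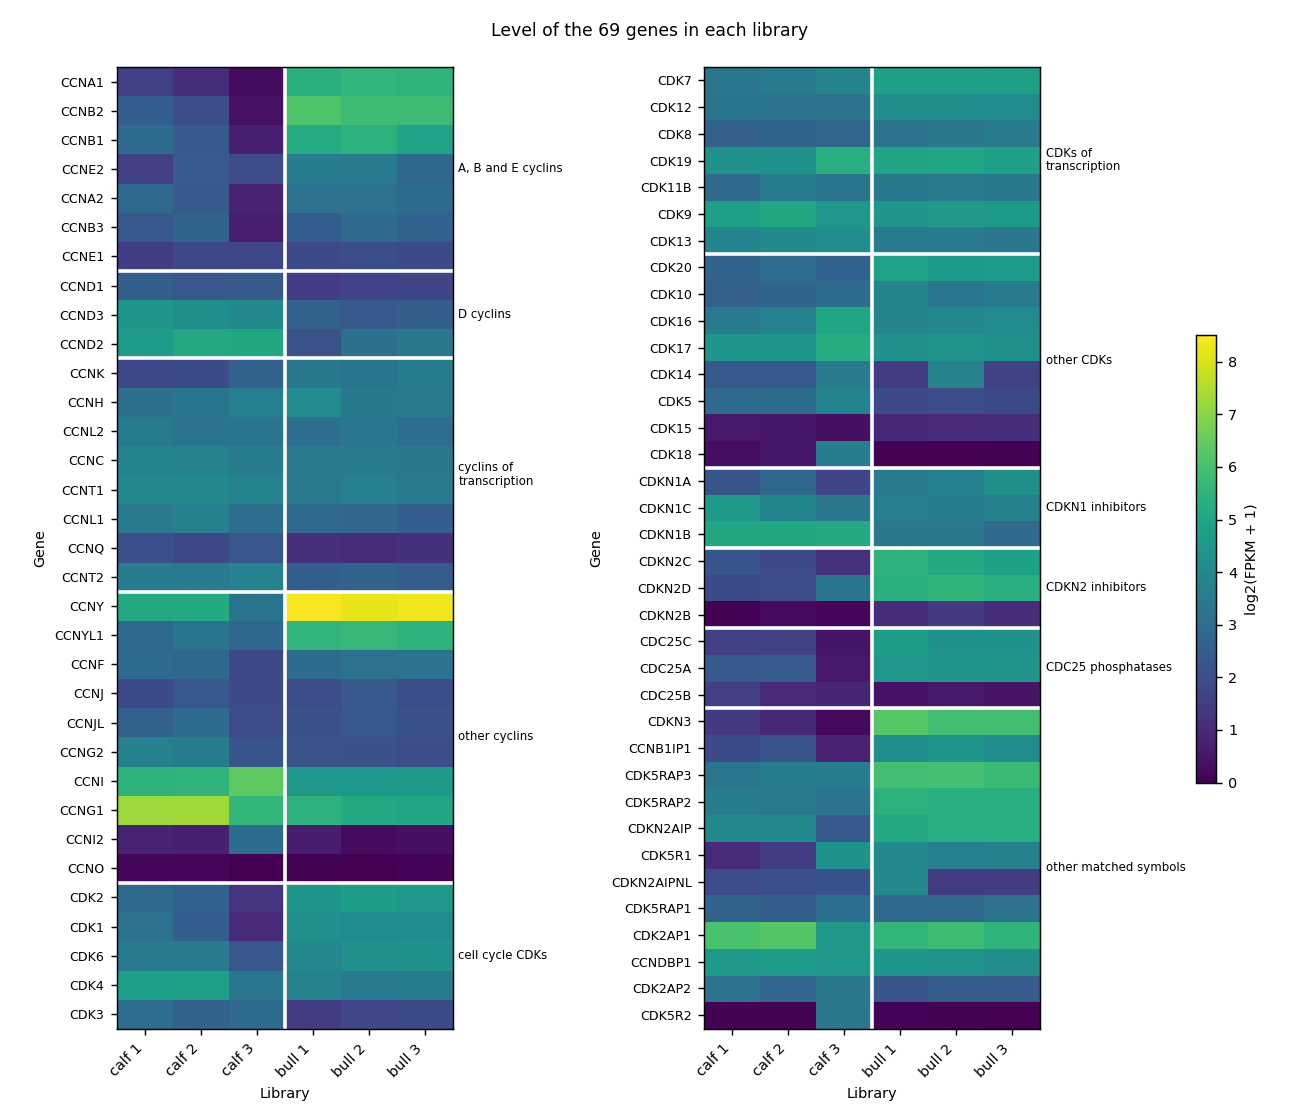
Level of each of the 69 members in the 6 libraries, in log2(FPKM + 1), with genes in rows grouped by role and libraries in columns. CCNY is the highest member in all 3 bulls (298 to 339 FPKM), and CDK18 and CDK5R2 reach 11.1 and 9.46 FPKM in calf 3 while they stay below 0.5 in the other 5 libraries.

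Of the 7 A, B and E cyclins, which act in S phase, mitosis and meiosis, 4 (57.1%) were called higher in bulls with and without calf 3 (CCNA1, CCNB1, CCNB2 and CCNE2), none was called lower, and 3 were not called, where 35.7% of all genes were called higher. Under quantile normalization 3 were called higher and none lower. Summed over the 7 genes, FPKM was 28.4, 25.6 and 8.04 in calves 1 to 3 and 175, 174 and 151 in bulls 1 to 3. CCNA1, the A-type cyclin of male meiosis (chr12:25107258-25118080), was at 2.09, 1.14 and 0.226 FPKM in calves 1 to 3 and at 41.3, 47.7 and 45.01 in bulls 1 to 3. The groups lay far apart, with a log2 fold change of 4.51 (SE 0.35, adjusted p = 0.000126), and 4.15 without calf 3. CCNA2, the A-type cyclin of somatic division, was at 6.42, 4.29 and 0.778 FPKM in calves and 8.002, 8.22 and 7.02 in bulls. The bulls of CCNA2 lay above the calves, but the log2 fold change of 1.08 (SE 0.53, adjusted p = 0.132) was not called, and it was 0.48 without calf 3 (adjusted p = 0.0526). The 2 A cyclins thus exchanged places. CCNA1 made up 22.6% ± 1.80 of their summed FPKM in calves and 85.2% ± 1.38 in bulls (SD, n = 3). An exact two-sided permutation test of this difference gave p = 0.1 (adjusted 0.157 over 11 shares), the smallest p that 3 against 3 libraries allow. In calf 3 the share was 22.5%, like the 24.5% and 20.9% of the other calves.

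CCNB2 and CCNB1, the B-type cyclins that bind CDK1 at entry into division, were both called higher. The FPKM of CCNB2 (chr10:51184626-51209368) was 4.86, 3.03 and 0.292 in calves and 70.5, 55.6 and 55.2 in bulls, a log2 fold change of 4.29 (SE 0.56, adjusted p = 0.00107). CCNB1 stood at 6.89, 4.36 and 0.679 FPKM in calves and at 36.3, 42.8 and 29.4 in bulls, with 3.15 (SE 0.58, adjusted p = 0.00459). Calf 3 was the lowest library for both, and the log2 fold changes without it were 3.65 and 2.50. The order of the pair turned over, since CCNB1 made up 62.5% ± 6.41 of their sum in calves and 37.4% ± 5.28 in bulls (SD, n = 3, exact permutation p = 0.1, the smallest possible), and 58.8% in calves 1 and 2 alone. CCNB3, a B-type cyclin of meiosis, was at 4.05, 5.74 and 0.657 FPKM in calves and 4.84, 6.47 and 5.17 in bulls, so the groups overlapped and no call was made (log2 fold change 0.75, adjusted p = 0.275, and 0.15 without calf 3). The E cyclins, partners of CDK2, also parted. CCNE2 was at 2.06, 4.47 and 2.86 FPKM in calves and 10.9, 10.04 and 6.32 in bulls and was called (1.30, SE 0.31, adjusted p = 0.0126), a call that was lost without bull 1 (1.16, adjusted p = 0.0539) or bull 2 (1.22, adjusted p = 0.0541). No tested transcript of CCNE2 was called. The annotated CCNE2-201 was at 0.228, 0.445 and 0.199 FPKM in calves and 0.281, 0.925 and 0.0919 in bulls. The assembled transcript TCONS_00083439, which was not tested, was at 0 in each calf and at 9.22, 5.24 and 0 in bulls. CCNE1 was at 1.99 to 2.55 FPKM in calves and 2.68 to 3.16 in bulls and was not called (0.20, adjusted p = 0.329, and 0.24 without calf 3), and its direction turned under quantile normalization (log2 fold change -0.51).

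Of the 3 D cyclins, which link growth signals to CDK4 and CDK6, 2 (66.7%) were called lower in bulls with and without calf 3 and none was called higher. Of all genes tested, 9.61% were called lower with calf 3 and 13.6% without it. Their summed FPKM was 51.2, 55.3 and 51.9 in calves and 10.8, 14.2 and 17.002 in bulls, and calf 3 did not stand apart here. CCND2 (chr5:105758195-105812757) was at 24.8, 33.8 and 32.1 FPKM in calves and at 3.60, 7.80 and 9.65 in bulls, a log2 fold change of -2.04 (SE 0.34, adjusted p = 0.00323). CCND3 was at 21.5, 17.6 and 15.6 FPKM in calves and 5.27, 4.15 and 4.95 in bulls, with -1.72 (SE 0.18, adjusted p = 0.000464). Both fell in bulls, and without calf 3 the values were -1.99 and -1.82. CCND1 was at 4.98, 3.91 and 4.18 FPKM in calves and 1.88, 2.28 and 2.40 in bulls. Its groups did not overlap and its adjusted p was 0.0114, but its log2 fold change of -0.75 stayed under the size needed for a call, as did -0.77 without calf 3. CCND2 was the highest of the 3 in each calf, with 57.1% ± 7.61 of their sum in calves and 48.3% ± 12.9 in bulls (SD, n = 3), shares that overlapped (exact permutation p = 0.5). In bull 1, CCND3 was the highest instead.

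**Figure D2:**
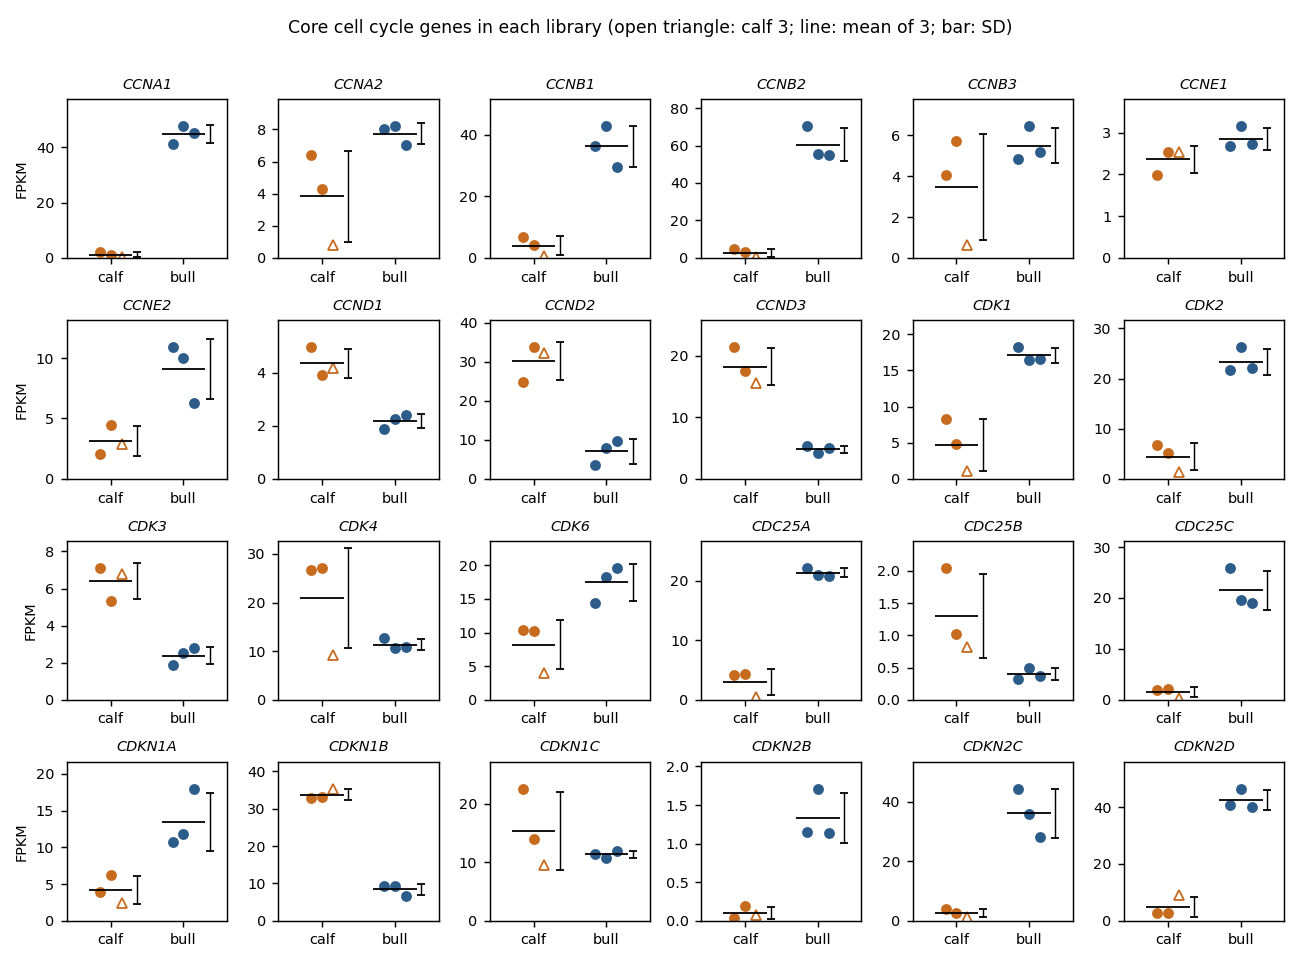
Level in FPKM (linear axis from 0, a separate scale for each gene) of core cell cycle members, with 1 point per library (open triangle for calf 3), a line at the mean of each group and a bar of 1 SD. The bulls of CCNA1, CCNB2, CDC25A and CDKN2C lie above every calf, and those of CCND2, CCND3 and CDKN1B below every calf.

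Among the CDKs that drive the cell cycle, 3 of 5 were called higher in bulls, 1 lower and 1 was not called. The shares over all genes tested were 35.7% higher and 9.61% lower. Without calf 3, 2 of the 5 were called higher and 2 lower, against 37.9% and 13.6% of all genes. Under quantile normalization, 1 was called higher and 1 lower, against 21.1% and 25.1% of all genes. CDK2 (chr5:57339030-57344446), the partner of E and A cyclins, was at 6.74, 5.21 and 1.40 FPKM in calves and 21.7, 26.3 and 22.1 in bulls (log2 fold change 2.32, SE 0.45, adjusted p = 0.00585, and 1.81 without calf 3). CDK1, the kinase of entry into division, was at 8.22, 4.87 and 1.04 FPKM in calves and 18.3, 16.4 and 16.5 in bulls (1.91, SE 0.55, adjusted p = 0.0261, and 1.30 and still called without calf 3). The groups of both kinases did not overlap, but the call of CDK1 was lost when any 1 bull was left out (adjusted p 0.0781 to 0.0871). CDK1 made up 48.6% ± 6.17 of the pair's sum in calves and 42.3% ± 3.65 in bulls (SD, n = 3, exact permutation p = 0.3), and these shares overlapped between the groups. The levels of CDK1 and of CCNA2, CCNB1 and CCNB2 in calf 3 were all less than 0.25 of the mean of calf 1 and calf 2, as were the proliferation markers as a sum (39.0 FPKM over 9 genes, against 179 and 177).

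CDK4 and CDK6, the partners of the D cyclins, did not move with them as a pair. CDK4 was at 26.7, 27.2 and 9.15 FPKM in calves and 12.6, 10.6 and 10.8 in bulls. With calf 3 its groups overlapped and it was not called (log2 fold change -0.69, SE 0.42, adjusted p = 0.210), and without calf 3 it was called lower (-1.18, adjusted p = 0.000209). CDK6 was at 10.3, 10.3 and 3.95 FPKM in calves and 14.4, 18.3 and 19.6 in bulls. It was called higher with all libraries (1.09, SE 0.37, adjusted p = 0.0449) but not without calf 3 (0.70, adjusted p = 0.00643), because of the size needed, and not without any 1 bull (adjusted p 0.0844 to 0.138). The share of CDK4 in their sum, which does not depend on the scaling of a library, was 72.1%, 72.5% and 69.9% in calves 1 to 3 and 46.7%, 36.7% and 35.5% in bulls 1 to 3. CDK4 was thus the more abundant in every calf, calf 3 included, and CDK6 in every bull (exact permutation p = 0.1, the smallest possible). CDK3, a kinase of exit from quiescence, was at 7.12, 5.33 and 6.78 FPKM in calves and 1.86, 2.51 and 2.79 in bulls and was called lower (-1.13, SE 0.20, adjusted p = 0.00397, and -1.09 without calf 3).

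**Figure D3:**
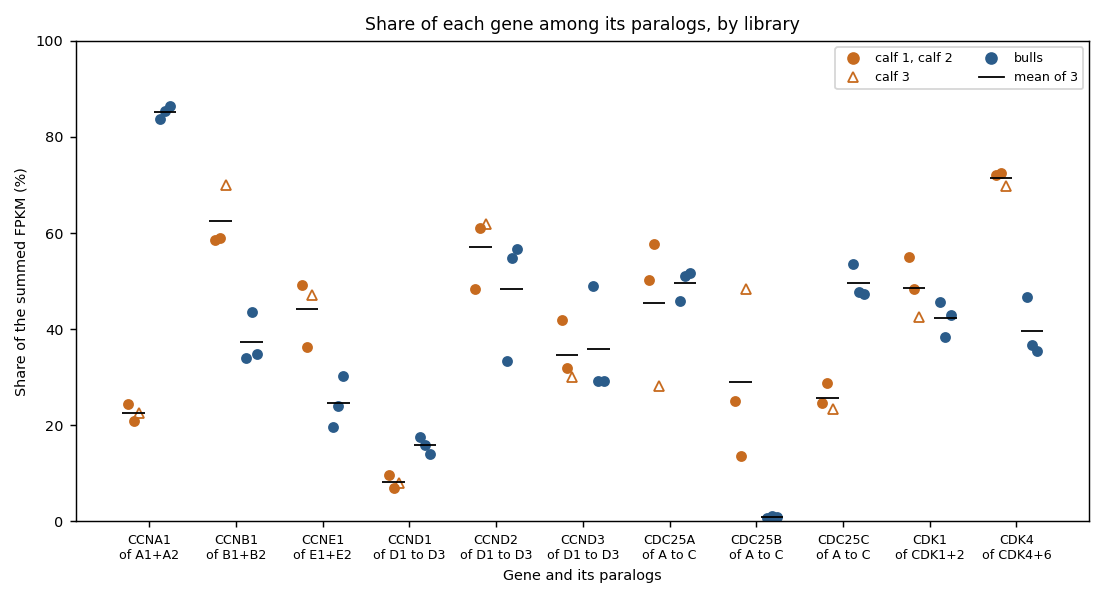
Share of 1 gene in the summed FPKM of its paralogs, in percent, with 1 point per library and a bar at the group mean. CCNA1 rises from a mean of 22.6% in calves to 85.2% in bulls, CDK4 goes from 71.5% to 39.6% of CDK4 and CDK6, and CDC25B from 29.0% to 0.933% of the 3 CDC25 genes.

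The CDC25 phosphatases, which activate CDKs, also changed their balance. CDC25A (chr22:51683674-51717133), which acts from the start of S phase, was at 4.12, 4.38 and 0.480 FPKM in calves and 22.2, 21.0 and 20.8 in bulls (log2 fold change 2.70, SE 0.52, adjusted p = 0.00558, and 2.09 without calf 3). CDC25C (chr7:49701226-49745215), which acts on the complex of CDK1 and cyclin B, was at 2.02, 2.18 and 0.398 FPKM in calves and 25.9, 19.6 and 19.1 in bulls (3.23, SE 0.36, adjusted p = 0.000570, and 2.85 without calf 3). Both were called with and without calf 3. CDC25B was at 2.05, 1.03 and 0.823 FPKM in calves and 0.330, 0.501 and 0.362 in bulls, below the filter, so it has no test of its own. The share of CDC25C in the sum of the 3 was 25.6% ± 2.81 in calves and 49.5% ± 3.46 in bulls, and that of CDC25B was 29.0% ± 17.8 and 0.933% ± 0.271 (SD, n = 3, exact permutation p = 0.1 for each, the smallest possible). Without calf 3, where CDC25B made up 48.4%, its mean share in calves was 19.3%. The share of CDC25A overlapped between groups (45.4% ± 15.3 against 49.5% ± 3.25, exact permutation p = 0.8).

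Of the 3 CDKN2 genes, inhibitors of CDK4 and CDK6, CDKN2C and CDKN2D were called higher in bulls under every alternative, and CDKN2B was called but entered the test through the bulls alone. Of the 3 CDKN1 genes, which bind complexes of cyclin and CDK more broadly, 1 (33.3%) was called higher and 1 (33.3%) lower. Of all genes tested, 35.7% were called higher and 9.61% lower. CDKN2C (p18, chr3:95337691-95344988) was at 3.79, 2.64 and 1.34 FPKM in calves and 44.3, 35.7 and 28.0 in bulls (log2 fold change 3.40, SE 0.32, adjusted p = 0.000271, and 3.12 without calf 3). CDKN2D (p19, chr7:15071126-15073864) was at 2.72, 2.88 and 8.92 FPKM in calves and 40.7, 46.5 and 40.2 in bulls (3.05, SE 0.40, adjusted p = 0.00113, and 3.51 without calf 3). Calf 3 was the lowest calf for CDKN2C and the highest for CDKN2D, and every bull lay above every calf for both. CDKN2B (p15) was at 0.0336, 0.187 and 0.0792 FPKM in calves and 1.14, 1.71 and 1.14 in bulls. It was called (1.08, SE 0.13, adjusted p = 0.000819), but it passed the filter only through the bulls, its call was lost without bull 2 (0.96, adjusted p = 0.00123), and its sign turned under quantile normalization (-0.082). CDKN1B (p27, chr5:97104351-97109627), an inhibitor abundant in cells that have left the cycle, was at 32.8, 33.1 and 35.3 FPKM in calves and 9.30, 9.27 and 6.73 in bulls. It fell in bulls by 1.89 on the log2 scale (SE 0.17, adjusted p = 0.000230, and -1.86 without calf 3), and the 3 calves were close to each other. CDKN1A (p21), a target of p53, was at 3.86, 6.21 and 2.41 FPKM in calves and 10.7, 11.8 and 17.98 in bulls (1.52, SE 0.34, adjusted p = 0.0104, and 1.26 without calf 3). CDKN1C (p57) was at 22.6, 14.02 and 9.51 FPKM in calves and 11.4, 10.8 and 11.99 in bulls, so that calf 3 fell below the bulls, and it was not called (-0.32, adjusted p = 0.405, and -0.60 without calf 3). In calves the most abundant inhibitor was thus CDKN1B. In bulls CDKN2D, CDKN2C, CDKN1A and CDKN1C all lay above it in every library, and only CDKN2B lay below it.

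Of the 10 cyclins outside these families, 8 were tested, 2 (25.0%) were called higher and 2 (25.0%) lower, against 35.7% and 9.61% of all genes. CCNY (chr13:18085580-18199546), a membrane-bound cyclin that activates CDK14 and CDK16, was at 35.1, 36.0 and 8.97 FPKM in calves and 339, 298 and 317 in bulls (log2 fold change 3.75, SE 0.53, adjusted p = 0.00152, and 3.12 without calf 3). It was the highest member in bulls, at 318 ± 20.8 FPKM (SD, n = 3), above the next (CDKN3, 65.2 ± 9.88) in all 3. CCNY alone made up 20.6% to 23.0% of the FPKM of the 69 members in bulls, against 4.17%, 4.15% and 1.22% in calves 1 to 3. Its paralog CCNYL1, a partner of CDK16 in male germ cells of mice, was at 6.41, 8.85 and 6.35 FPKM in calves and 47.7, 50.0 and 43.8 in bulls (2.57, SE 0.17, adjusted p = 7.80e-05, and 2.49 without calf 3). Of their kinase partners, CDK16 was at 10.3, 12.8 and 31.5 FPKM in calves and 13.6, 14.8 and 15.98 in bulls (-0.13, adjusted p = 0.811, and 0.33 without calf 3), and neither CDK14 nor CDK16 was called.

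CCNG1 (chr7:75115945-75123209), a p53 target and the highest member in calves 1 and 2, was at 151, 155 and 48.9 FPKM in calves and 44.1, 35.1 and 31.4 in bulls. It was called lower (log2 fold change -1.50, SE 0.48, adjusted p = 0.0380), and more firmly without calf 3 (-2.04, adjusted p = 6.70e-05), but its call was lost when any 1 of the other 5 libraries was left out (adjusted p 0.0814 to 0.122). CCNG2 was at 12.2, 11.1 and 3.86 FPKM in calves and 3.46, 3.32 and 3.05 in bulls and was called lower only without calf 3 (-1.56, adjusted p = 0.000104, against -1.10 and 0.0610 with it). CCNI, an atypical cyclin, was at 44.5, 45.5 and 83.2 FPKM in calves and 22.3, 22.0 and 22.8 in bulls. Its call as lower (-1.27, SE 0.27, adjusted p = 0.00824) was lost without calf 3, where the log2 fold change was -0.98 with an adjusted p of 0.000152. For all 3, the calves lay above the bulls in every library. No pair of neighbours among the 10 highest mean levels in calves, led by CCNG1 (118 ± 60.1 FPKM), CCNI (57.7 ± 22.1), CDK2AP1 (54.1 ± 26.9) and CDKN1B (33.8 ± 1.38), was separated in all 3 calves.

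**Figure D4:**
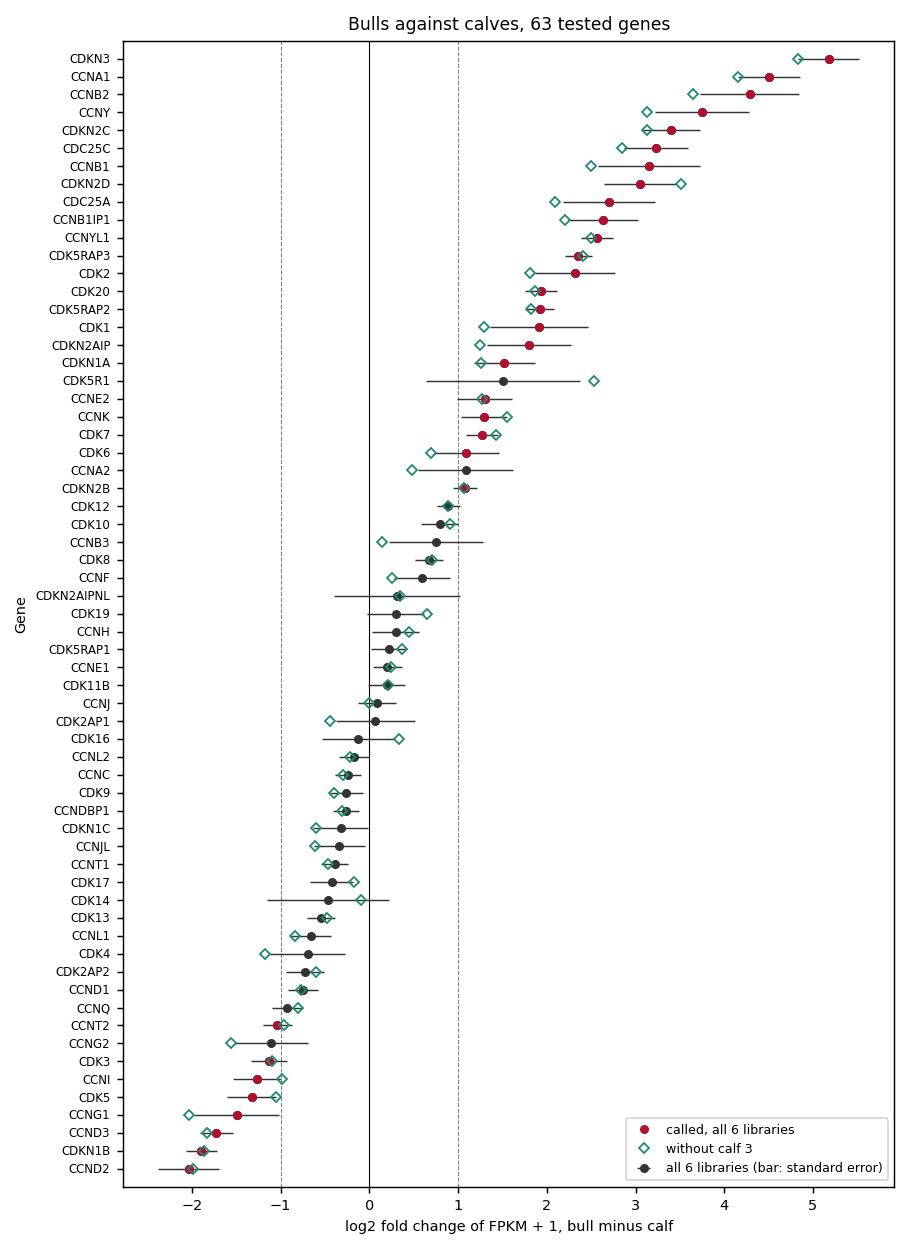
Log2 fold change of FPKM + 1, bull minus calf, of the 63 tested members in order of size, as filled points with bars of 1 SE for all 6 libraries (red where called) and as open diamonds without calf 3. The A, B and E cyclins, CDKN2 inhibitors and CDC25 genes lie above 0, the D cyclins below, and the members of transcription mostly within 1 of 0.

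Of the 8 cyclins of transcription, 1 (12.5%) was called higher and 1 lower, and of the 7 CDKs of transcription, 1 (14.3%) was called higher and none lower, against 35.7% and 9.61% of all genes. The groups did not overlap for 1 of these cyclins and 3 of these CDKs that were higher in bulls. They did not overlap for 5 cyclins and 1 CDK that were lower. Of all genes tested, 46.1% were higher and 21.3% lower in bulls without overlap. CDK7 (chr20:10426339-10478625), the kinase that activates other CDKs and is part of the transcription factor TFIIH, was at 9.10, 10.5 and 13.8 FPKM in calves and 28.3, 28.1 and 27.3 in bulls (log2 fold change 1.27, SE 0.18, adjusted p = 0.00160, and 1.42 without calf 3). Its cyclin, CCNH, was at 7.70, 8.95 and 11.7 FPKM in calves and 16.3, 9.71 and 10.001 in bulls, with overlapping groups and no call (0.30, adjusted p = 0.377, and 0.45 without calf 3). CCNK, the cyclin of CDK12 and CDK13, was at 2.61, 2.78 and 5.27 FPKM in calves and 9.77, 8.93 and 10.8 in bulls and was called higher (1.29, SE 0.26, adjusted p = 0.00678, and 1.55 without calf 3), while neither kinase was called. CDK12 was at 8.59 to 8.77 FPKM in calves and 16.6 to 17.2 in bulls (0.89, adjusted p = 0.00179, and 0.89 without calf 3), and CDK13 at 13.3 to 16.9 and 9.41 to 10.6 (-0.55, adjusted p = 0.0264, and -0.48 without calf 3), so the groups of both were apart, in opposite directions. CCNT2, a cyclin of CDK9, was at 11.1, 10.3 and 12.7 FPKM in calves and 4.87, 5.45 and 4.70 in bulls. Its call as lower (-1.04, SE 0.16, adjusted p = 0.00225) rested on a value near the limit and was lost without calf 3 (-0.96). CCNT1 (-0.39, adjusted p = 0.0722) and CDK9 itself (-0.26, adjusted p = 0.281) were not called, and without calf 3 their values were -0.46 and -0.40.

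Among the 8 remaining CDKs, 6 were tested. CDK20, a kinase of ciliary signalling (chr8:90058550-90067819), was at 5.49, 7.23 and 5.32 FPKM in calves and 29.5, 23.7 and 24.2 in bulls (log2 fold change 1.94, SE 0.18, adjusted p = 0.000272, and 1.87 without calf 3). CDK5, a kinase known above all from neurons, was at 6.93, 6.99 and 13.2 FPKM in calves and 2.72, 3.12 and 2.72 in bulls and was called lower (-1.33, SE 0.28, adjusted p = 0.00759, and -1.05 without calf 3). CDK5R1 encodes p35, the activator of CDK5, and was at 1.07, 1.90 and 19.9 FPKM in calves and 15.9, 11.8 and 12.3 in bulls. It was called higher only without calf 3 (2.53, SE 0.21, adjusted p = 9.57e-05), and with it the values were 1.51 and 0.189. The kinase and its activator therefore differed in opposite directions between the bulls and calves 1 and 2. Calf 3 exceeded the mean of calf 1 and calf 2 by more than 4-fold for 4 members, by 13.3-fold for CDK5R1, 9.31-fold for CCNI2, 32.0-fold for CDK18 and 294-fold for CDK5R2, which encodes p39, the other activator of CDK5. CDK5R2 was at 0.0406, 0.0238 and 9.46 FPKM in calves and at most 0.0578 in bulls, and CDK18 at 0.253, 0.441 and 11.1 in calves and at most 0.0266 in bulls. In the same library, 11 members were at 0.25 of that mean or less, from CCNB2 (0.0741 of it) to CDK2 (0.235), and these included CCNA1, CCNA2, CCNB1, CCNB3, CDC25A, CDC25C and CDK1. The neural marker sum given above was high in this library alone, and its part in these values was not tested.

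The remaining 12 symbols belong to proteins that bind or modify CDKs, or that carry a member's name without being a cyclin or a kinase. Of the 11 tested, 5 (45.5%) were called higher and none lower, against 35.7% and 9.61% of all genes. CDKN3 (chr10:66925220-66944193), a phosphatase that removes the activating phosphate of CDK2, was at 1.71, 0.962 and 0.129 FPKM in calves and 76.6, 59.5 and 59.6 in bulls. Its log2 fold change of 5.18 (SE 0.34, adjusted p = 7.15e-05, and 4.83 without calf 3) was the largest among the 63 tested members. CCNB1IP1 (HEI10), a factor of meiotic crossovers named for its binding to cyclin B1, was at 2.79, 3.63 and 0.724 FPKM in calves and 17.9, 21.3 and 16.2 in bulls (2.64, SE 0.39, adjusted p = 0.00192, and 2.21 without calf 3). CDK5RAP3 (9.04, 11.1 and 11.2 FPKM in calves and 59.4, 60.6 and 52.7 in bulls) and CDK5RAP2, a protein of the centrosome (11.1, 10.7 and 8.48 in calves and 42.7, 40.2 and 39.6 in bulls), had log2 fold changes of 2.36 and 1.93 (adjusted p 6.67e-05 and 0.000148, and 2.41 and 1.82 without calf 3). CDKN2AIP was at 15.5, 15.5 and 4.25 FPKM in calves and 33.9, 40.4 and 40.4 in bulls (1.79, SE 0.47, adjusted p = 0.0194, and 1.24 without calf 3), a call that was lost without any 1 bull (adjusted p 0.0575 to 0.0695).

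The transcript table gives several of these genes in more detail. The members have 269 transcripts there, of which 100 were among the 23212 tested. In bulls, 34 (34.0%) were called higher and 12 (12%) lower, against 34.8% and 9.37% of all transcripts tested, and without calf 3 the counts were 34 and 15 (background 36.1% and 13.1%). Of the 34, 10 had no calf at 1 FPKM and passed the filter through the bulls alone. Under quantile normalization the counts were 23 and 29 (background 21.6% and 25.3%). Of 27 genes with at least 2 tested transcripts, 17 had transcripts that differed in call or direction. The share over all such genes of the series was not counted, so this does not set the members apart. The rise of CDKN2D lay in 1 of its 2 transcripts. CDKN2D-202 was at 1.12, 1.25 and 4.90 FPKM in calves and 39.1, 44.5 and 38.4 in bulls (log2 fold change 3.77, adjusted p = 0.000598, and 4.25 without calf 3), while CDKN2D-201 was at 1.60, 1.63 and 4.03 and at 1.62, 1.98 and 1.83 (-0.21, adjusted p = 0.586, and 0.10 without calf 3). The share of CDKN2D-202 in the gene was thus 41.1%, 43.3% and 54.9% in calves and 96.0%, 95.7% and 95.5% in bulls. CDK7 was alike, since CDK7-201 was at 5.21, 6.41 and 4.87 FPKM in calves and 26.0, 23.9 and 23.3 in bulls (1.97, adjusted p = 0.000186, and 1.90 without calf 3), and the assembled transcript TCONS_00177120 was at 3.71, 3.88 and 8.18 and at 2.15, 3.95 and 3.74 (-0.50, adjusted p = 0.268, and -0.19 without calf 3).

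CDK2AP1, a protein that binds CDK2, was not called as a gene (65.0, 73.9 and 23.4 FPKM in calves and 48.9, 57.6 and 46.4 in bulls, log2 fold change 0.07, adjusted p = 0.909, and -0.44 without calf 3), and 1 of its 2 tested transcripts was. CDK2AP1-201 was at 63.7, 73.2 and 23.4 FPKM in calves and 27.7, 22.3 and 22.1 in bulls (-0.98, adjusted p = 0.113, and -1.48 and called without calf 3). The assembled TCONS_00118163 was at 1.16, 0.640 and 0.0480 FPKM in calves and 15.3, 31.9 and 21.2 in bulls (3.88, adjusted p = 0.000357, and 3.60 without calf 3), and made up 31.2%, 55.4% and 45.6% of the gene there. In CCNI, the gene with transcripts called in both directions, CCNI-201 was lower in bulls (42.2, 42.6 and 81.0 against 17.9, 16.4 and 15.4 FPKM, log2 fold change -1.61, adjusted p = 0.00432, and -1.31 without calf 3), and the minor TCONS_00321224 was higher (0.116, 0.118 and 0 against 1.70, 2.26 and 2.62 FPKM, log2 fold change 1.56, adjusted p = 0.000303, and 1.51 without calf 3), although it passed the filter through the bulls alone. CCNY-201 carried 96.6% to 99.6% of CCNY in calves 1 and 2 and in bulls, but 2.13% in calf 3, where TCONS_00073040 (8.74 FPKM, against 0.986 to 1.36 in the other 5 libraries) carried 97.4%. The low CCNY-201 of calf 3 (0.191 FPKM, against 34.1 and 34.8 in the other calves) widened its difference, which was 4.79 with calf 3 (adjusted p = 0.0256) and 3.16 without it, both called.

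**Figure D5:**
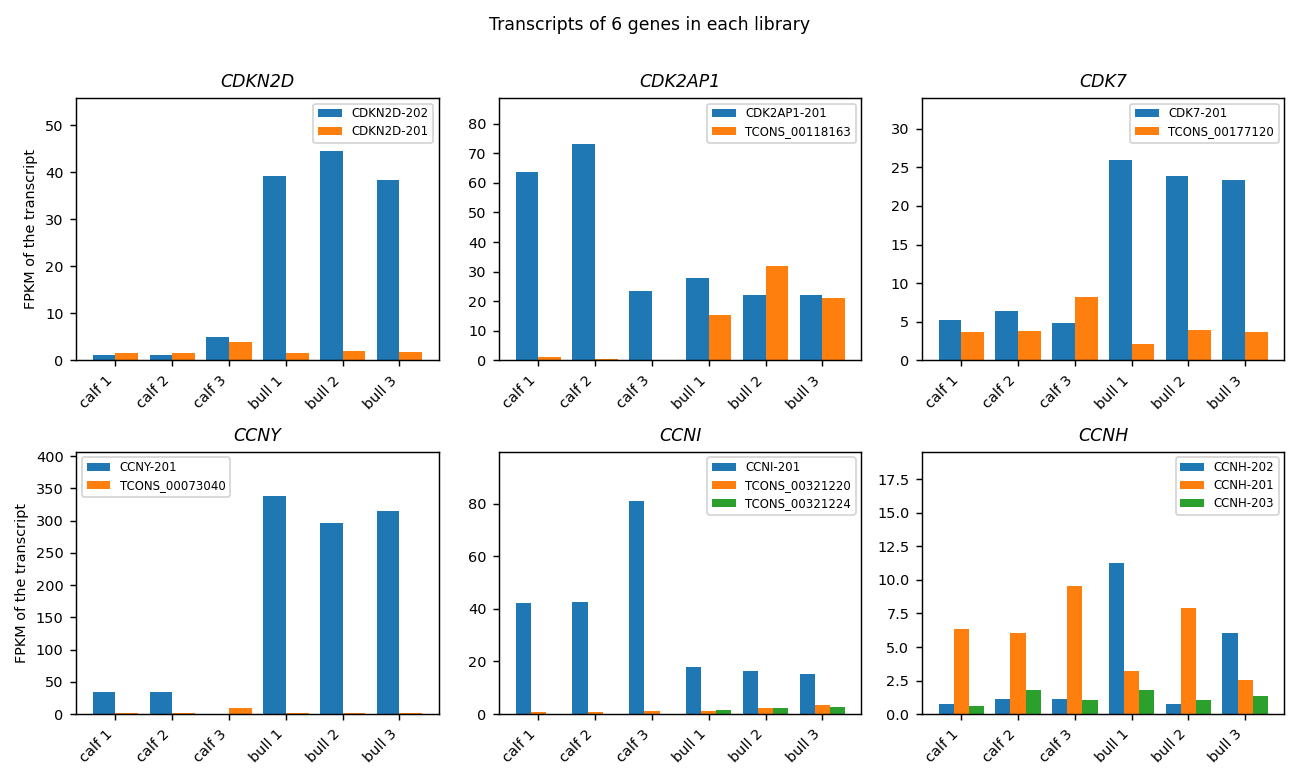
Level in FPKM of the tested transcripts of 6 members, with 1 bar per library and transcript (linear axes from 0, a separate scale for each gene). CDKN2D-202 is at 38.4 to 44.5 in bulls against 1.12 to 4.90 in calves while CDKN2D-201 stays below 5 in all 6 libraries, and TCONS_00118163 of CDK2AP1 is at 15.3 to 31.9 in bulls against at most 1.16 in calves.

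The other 12 of the 17 genes differed less, with values given here for all 6 libraries unless stated. CCNT2-201 was called lower (log2 fold change -1.36) and TCONS_00167154 not (-0.78), and in CCNG2 TCONS_00314331 was called (-1.03) and CCNG2-201 not (-0.996). Without calf 3, TCONS_00314331 (-1.41) and CCNG2-201 (-1.42) were both called lower. CDK13 had TCONS_00288186 called lower (-1.03) beside CDK13-201 (-0.32), and CCNF had CCNF-202 called higher (1.02) beside CCNF-201 (0.44). Without calf 3, CCNF-202 was not called (0.82). CDK8 had TCONS_00060763 called higher (1.11) beside TCONS_00060765 (-0.51). However, TCONS_00060763 had no calf at 1 FPKM and passed the filter through the bulls alone. CDK20-201 was called higher (2.23) and CDK20-202 not (0.65), as were CDK5RAP2-207 (1.93) and CDKN2AIP-201 (2.35) beside CDK5RAP2-203 (0.88) and TCONS_00235754 (0.90). In CCNE2, CCNH and CCNL2 transcripts differed in direction with none of those pairs called. In CDK12, the called transcript was CDK12-AS7 (1.25), which is named as antisense and passed the filter through the bulls alone.

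Gene values include transcripts named as antisense for 17 members, 36 transcripts in all. Per the Methods, the libraries were strand-specific. In CDK12, 8 such transcripts summed to a mean of 0.0101 FPKM in calves and 4.48 in bulls, which was 26.6% of the gene value in bulls, and the log2 fold change of CDK12 was 0.47 without them. CDK6 lost its call without them (0.96, adjusted p = 0.0719). Of the 69 members, 24 overlap another named entry of the table, among them CCNE2 (with TP53INP1), CDK2 (PMEL), CDK4 (TSPAN31), CDC25C (FAM53C), CDK3 (TEN1) and CDK7 (CENPH, MRPS36 and CCDC125), and how fragments in the shared stretches were divided is not given in the sources used here.

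Regulators around the members were counted from lists chosen by function, where 35.7% of all genes were called higher and 9.61% lower. Of 21 genes of RB, E2F and the MuvB complex, 10 (47.6%) were called higher and none lower, but E2F7, E2F8 and FOXM1 had no calf at 1 FPKM and passed the filter through the bulls alone, and 7 of the other 18 were called. TFDP2, the dimer partner of E2F, was at 10.5, 10.996 and 8.63 FPKM in calves and 94.6, 133 and 123 in bulls (3.41, adjusted p = 3.79e-05, and 3.31 without calf 3), and LIN37 of MuvB reached 3.65 (adjusted p = 4.39e-05, and 3.55 without calf 3). Of 16 tested kinases and partners that act on CDKs, 7 (43.8%) were called higher and none lower, and PKMYT1, which inhibits CDK1 (0.725 to 0.953 FPKM in calves and 22.1 to 25.5 in bulls), passed the filter through the bulls alone. SPDYA, a non-cyclin activator of CDK2 in meiosis, was at 2.69, 1.75 and 3.60 FPKM in calves and 52.5, 60.1 and 62.5 in bulls (4.04, adjusted p = 3.82e-05, and 4.22 without calf 3). HSPA2, a chaperone needed for assembly of CDK1 with cyclin B in spermatocytes, was at 5.09, 12.4 and 13.997 FPKM in calves and 165, 190 and 193 in bulls (4.10, adjusted p = 0.000215, and 4.34 without calf 3). Of 24 genes of the APC/C and SCF ubiquitin ligases, which mark cyclins and inhibitors for breakdown, 12 (50.0%) were called higher and none lower, among them CDC20 (3.94, and 3.32 without calf 3), CUL1 (2.69 and 2.66) and FZR1 (1.60 and 1.72). Without calf 3, the counts of the 3 lists were 9, 7 and 13 higher (background 37.9%), and under quantile normalization they were 6, 6 and 6 higher with 1, 2 and 2 lower (background 21.1% and 25.1%).

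Of 9 proliferation markers, 4 (44.4%) were called higher and none lower (median log2 fold change 1.15), against 35.7% and 9.61% of all genes. TOP2A was at 16.7, 6.77 and 0.987 FPKM in calves and 37.1, 40.9 and 34.1 in bulls (2.56, adjusted p = 0.0308, and 1.71 without calf 3), and MKI67 at 2.06, 1.13 and 0.276 and at 2.91, 2.56 and 4.03 (1.02, adjusted p = 0.0468; not called without calf 3). Without calf 3, 3 were called and the median was 0.56, and none was called under quantile normalization. The log2 fold changes of CCNA1, CCNB2, CDKN3, CDC25C and CDKN2C (3.23 to 5.18) were larger than that of TOP2A, which differed most of these 9 markers. These members were picked for their large differences. CCNA2 (1.08), CDK1 (1.91) and CDK6 (1.09) lay below TOP2A, and the median of all tested members was 0.30.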

How the data were processed

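RNA of 6 testes was sequenced by the authors, who per the Methods removed ribosomal reads with Bowtie2, mapped to UMD 3.1.1 with TopHat2 and assembled with StringTie. The deposited tables hold FPKM values of genes and transcripts per library and no counts, and the Methods name no tool for them. The study gives reads per library, but the fragments behind a single value could not be recovered, since at most 3.63% of low values shared a common ratio between libraries. Sums of FPKM ran from 587066 to 1098715. Positions are those of the tables, and all 69 overlap the same gene on ARS-UCD2.0.

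Values were tested as log2(FPKM + 1) with limma 3.58.1 in R 4.3.3 (empirical Bayes with trend, two-sided), after a filter of at least 1 FPKM in at least 3 of 6 libraries, which does not use the groups. The pseudocount of 1 understates changes of low genes. Paralog shares were tested by exact permutation of the 20 labelings. The procedure was tested on simulated data, in which 200 genes and 200 transcripts were changed by 2 on the log2 scale. It called 69% of these genes and 53.5% of these transcripts, so a member not called may still differ. Of the unchanged features, 7 genes and 8 transcripts were called. The simulation held 16753 genes, so few of them differed, whereas 35.7% and 9.61% of the real genes were called higher and lower. It also gave each gene the same spread in all libraries, with none standing apart as calf 3 did. These rates may therefore not hold for the real data. Figures were drawn with matplotlib 3.10.9.

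Members, roles, lists and tests were chosen with earlier results of these data known. Named with values were the 4 largest calls per role and direction, every member of the cell cycle families, and members whose call changed without calf 3, with transcripts of genes whose tested transcripts differed. Other members named were chosen after their values were seen. Labels give 1 animal per library. Alternatives were other pseudocounts, filters, scalings, weights, a replicate block, each library left out, and gene values as sums of transcripts, which was chosen after seeing the data.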

Additional observations from a re-analysis of the deposited data

How the results depend on the processing

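With all values as deposited, 23 member genes were called higher and 8 lower, and 34 and 12 member transcripts. Quantile normalization gave 15 and 15 genes and 29 transcripts lower, and scaling to a common total gave 4 genes and 7 transcripts lower. The median log2 fold change of all genes was 0.43 as deposited, -0.26 under quantile normalization, 0.35 under median-of-ratios scaling and 0.63 under the common total. With each library left out in turn, 18 to 23 genes were called higher and 7 to 8 lower, and 30 to 34 transcripts higher and 9 to 15 lower. Over 16 settings of the gene table, 15 members were called higher in each (CCNA1, CCNB1, CCNB1IP1, CCNB2, CCNY, CCNYL1, CDC25A, CDC25C, CDK2, CDK20, CDK5RAP2, CDK5RAP3, CDKN2C, CDKN2D and CDKN3), 3 lower in each (CCND2, CCND3 and CDKN1B), and 21 were called in none. How many of all genes were called in each setting or in none was not counted. These counts therefore do not set the members apart from other genes. Shares of all genes were also not counted for the common total, nor for leaving out any library other than calf 3.

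Signs turned for members that had not been called, except CDKN2B. Under quantile normalization the log2 fold changes were -0.44 for CDKN2AIPNL, -0.23 for CCNH, -0.082 for CDKN2B, -0.31 for CDK11B, -0.51 for CCNE1, -0.55 for CCNJ, -0.27 for CDK5RAP1, -0.43 for CDK19 and -0.69 for CDK2AP1. The common total gave 0.015 for CCNL2 and 0.069 for CDK16, and median-of-ratios scaling gave -0.037 for CDK2AP1. Array weights gave 0.31 for CDK16, -0.39 for CDK2AP1 and 0.028 for CDK14. Leaving out calf 3 gave -0.00090 for CCNJ, 0.33 for CDK16 and -0.44 for CDK2AP1, leaving out bull 1 gave -0.53 for CDKN2AIPNL, and leaving out bull 2 gave -0.028 for CCNJ and -0.023 for CDK2AP1, and over all libraries left out in turn these members ranged from -0.53 to 0.75 (CDKN2AIPNL), -0.028 to 0.24 (CCNJ) and -0.44 to 0.37 (CDK2AP1). Summing transcripts without those named as antisense gave -0.056 for CDK2AP1. The share of CCND3 (1.19 percentage points higher in bulls with all libraries) became -0.193 without calf 2, -1.09 without calf 3 and -5.43 without bull 1, within a range of -5.43 to 4.85, and that of CDC25A (4.12) became -4.48 without calf 3, within -4.48 to 10.3. The causes were not tested.

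Libraries of both groups carry the numbers 1 to 3. Deviations of same-numbered libraries from their group means correlated at 0.0277, 0.0246 and 0.0341. These values are small, but each library correlated best with its own number. Whether the numbers mark a shared batch or pairing was not tested. With a replicate block, 22 and 8 genes and 33 and 11 transcripts were called, and CDK6 lost its call (adjusted p = 0.0778). The shares of all genes and transcripts called under this block were not counted. The tables hold no counts, so the number of fragments behind low members such as CCNO and CDKN2B, and a counting interval for them, could not be given.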

Other observations

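In some members a single bull stood apart from the other two. CDKN2AIPNL was at 2.97, 3.22 and 3.41 FPKM in calves and at 15.8, 1.85 and 1.94 in bulls 1 to 3. CDK14 was at 4.24, 4.32 and 10.4 FPKM in calves and at 1.78, 12.6 and 2.19 in bulls. Neither was called, and with 3 libraries a group no sample was tested as an outlier.

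The transcripts of CCNH, the cyclin of CDK7, were also uneven among bulls. CCNH-202 was at 0.761, 1.12 and 1.09 FPKM in calves and at 11.3, 0.769 and 6.07 in bulls, and CCNH-201 at 6.37, 6.04 and 9.57 and at 3.24, 7.91 and 2.56. CCNH-202 made up 69.2% and 60.7% of the gene in bulls 1 and 3 but 7.92% in bull 2, where CCNH-201 made up 81.5%, as it did with 67.5% to 82.7% in calves. Bull 2 was thus like the calves in this gene, and neither transcript was called (log2 fold changes of 1.43 and -0.68).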
